A study of Mus musculus with 6 samples.

Results

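Cytosolic ribosomal proteins are the protein components of the ribosomes that translate messages of nuclear genes. Their transcripts were followed in mouse embryonic stem (ES) cells that carried lentivirus for KBP(KK/RR) (replicates 4, 5 and 6) or for wild-type KBP (replicates 1, 2 and 3). The genes were chosen by symbol: Rpl or Rps followed by a number and at most a final a or x, together with Rplp0, Rplp1, Rplp2 and Rpsa. This gave 76 of the 23420 gene symbols in the count table, 46 for the large subunit and 30 for the small subunit. KBP is the Kif1-binding protein, and KBP(KK/RR) is a mutant that the labels describe as stable. Both groups were ES cells stably transduced with a virus and kept in self-renewing conditions, so the comparison sets the mutant against the wild-type protein and holds no cells without virus. The clone, the strain and the promoter of the virus were not stated, and nothing says whether the replicates came from separate cultures. The p-values below therefore measure the spread between these libraries, which may be technical.

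Each ribosome joins a small subunit, which reads the message, to a large subunit, which forms the peptide bond, and each subunit needs its proteins in matched amounts. In mammals most of these proteins are encoded by a single active gene, with many processed pseudogenes scattered over the genome. Their transcripts are among the most abundant in dividing cells. They begin with a tract of pyrimidines, the 5′ terminal oligopyrimidine (TOP) motif, through which the mTOR pathway and the protein Larp1 regulate their translation.

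The annotated starts of 7 of these genes and their surroundings show where runs of pyrimidines lie. In each line 60 bases before and 20 bases from the annotated start are given on the gene's strand, from RefSeq on GRCm38.p6, and capitals mark runs of at least 8 C or T. Rpl5, Rpsa, Rpl7a, Rpl14 and Rps12 are shown for their differences between the groups, and Rps27 and Rpl26 because they had almost no counts. Rpl7a, Rpl14 and Rpl26 were named after their values were seen.
Rpl5, chr5:107900468-107900547, plus strand: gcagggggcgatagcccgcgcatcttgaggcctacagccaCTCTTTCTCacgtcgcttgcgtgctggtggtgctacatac
Rpsa, chr9:120127706-120127785, plus strand: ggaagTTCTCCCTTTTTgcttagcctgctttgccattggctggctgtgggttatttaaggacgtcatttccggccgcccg
Rpl7a, chr2:26910747-26910826, plus strand: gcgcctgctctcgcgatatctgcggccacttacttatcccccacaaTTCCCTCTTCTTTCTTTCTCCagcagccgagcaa
Rpl14, chr9:120571457-120571536, plus strand: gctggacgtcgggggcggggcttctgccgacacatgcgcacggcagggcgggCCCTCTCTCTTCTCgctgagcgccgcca
Rps12, chr10:23787190-23787269, minus strand: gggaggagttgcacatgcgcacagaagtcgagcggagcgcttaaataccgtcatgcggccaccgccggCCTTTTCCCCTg
Rps27, chr3:90213629-90213708, minus strand: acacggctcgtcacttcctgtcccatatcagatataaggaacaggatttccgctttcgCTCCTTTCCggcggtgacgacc
Rpl26, chr11:68901506-68901585, plus strand: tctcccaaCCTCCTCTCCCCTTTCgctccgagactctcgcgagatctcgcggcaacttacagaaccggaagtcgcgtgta

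In Rpl7a, Rpl14 and Rps27 the run of pyrimidines lay across the annotated start, with 21, 14 and 9 bases. The run of Rpl5 ended 12 bases before its annotated start, and that of Rps12 began at base 9 after it. The runs of Rpsa and Rpl26 lay farther before the start, from base -55 to -44 and from base -52 to -37, so 3 of the 7 had a run at the annotated start. The same stretch of Rplp0, also examined but not printed above, held 0 bases in such runs. RefSeq held start regions for 56 of the 76 genes, as 66 windows of 300 bases (250 before and 50 after the start). A run of at least 8 pyrimidines on the gene's strand lay between 60 bases before and 20 bases after the start in 60.6% of these windows, against 31.2% of all 32851 windows. The letters CTTTCC on the gene's strand were in 39.4% of the ribosomal windows and 14.1% of all. The letters CGGAAG, the core bound by ETS-family factors such as GABP, were on either strand of 62.1% of the ribosomal windows and 16.9% of all. The letters AAGATGG, part of the YY1 site, were on either strand of 16.7% and 6.34%, and GGGCGG, the GC box, of 60.6% and 35.7%. The TATA-like letters TATAAA on the gene's strand were in 7.58% and 8.32%. None of these motifs was searched with mismatches, and their matches could overlap.

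The libraries were made from total RNA depleted of ribosomal RNA, and held 29863560, 24300832 and 29746764 counts for KBP(KK/RR) and 26059701, 32160411 and 24131743 for wild-type KBP. The KBP gene itself (2510003E04Rik in the table) averaged 56.6 ± 2.88 CPM (counts scaled to TMM-adjusted library totals) in KBP(KK/RR) cells and 48.3 ± 1.30 CPM in wild-type KBP cells (SD, n = 3 each; log2 fold change 0.23, SE 0.05, edgeR adjusted p = 0.0133). Its counts join the endogenous gene with any reads that map from the vector, and it was not called when KBP(KK/RR) replicate 5 (adjusted p = 0.0735) or wild-type KBP replicate 2 (0.0908) was left out. All 12 ES cell markers examined were detected in every library, among them Pou5f1 at 1370 to 1513 CPM and Nanog at 302 to 345 CPM, and 0 of them were called by edgeR. In the same fit 448 of 14340 tested genes were called, 151 higher and 297 lower in KBP(KK/RR).

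Levels of single ribosomal protein genes are given per kilobase (kb) of coding sequence, so that genes of different length can be set side by side. Of the 76 genes, 72 were above 10 CPM, at mean levels of 239 to 2563 CPM. Per kb, the middle 50% of these 72 lay between 1394 and 1954 CPM per kb, with a median of 1661. The small subunit's median was 1677 CPM per kb (29 genes) and the large subunit's 1658 (43 genes). The spread across the family was therefore narrow, with 65 of the 72 between 1000 and 2600 CPM per kb.

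The highest level per kb of coding sequence belonged to Rpl41, which encodes the smallest ribosomal protein and has only 75 coding bases. It had 13525 ± 157 CPM per kb in KBP(KK/RR) and 12749 ± 392 CPM per kb in wild-type KBP cells (SD, n = 3 each). Reads that fall in untranslated sequence weigh most in so short a coding sequence. The whole annotated transcripts have 582 bases for Rpl41, 499 for Rplp1 and 390 for Rps29, and the order given here is by coding length only. Next came Rplp1, an acidic protein of the stalk that recruits translation factors, at 3915 ± 219 CPM per kb in KBP(KK/RR) and 3684 ± 22.6 in wild-type KBP. Rps29, a zinc-binding protein of the small subunit, had 3461 ± 178 CPM per kb in KBP(KK/RR) and 3299 ± 210 in wild-type KBP. Rplp0, the base of the stalk, had 2757 ± 98.2 against 2633 ± 73.7 CPM per kb, and Rpsa, a small subunit protein also known as the laminin receptor, 2600 ± 129 against 2416 ± 69.9 CPM per kb. Of neighbours in that order, Rplp0 and Rpsa overlapped in the KBP(KK/RR) libraries, and the others did not overlap in either group. At the low end of the 72 stood Rps23, a protein of the decoding centre, at 711 ± 3.41 CPM per kb in KBP(KK/RR) and 680 ± 18.6 in wild-type KBP. Rpl37 had 823 ± 18.0 against 819 ± 14.9 CPM per kb.

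**Figure D1:**
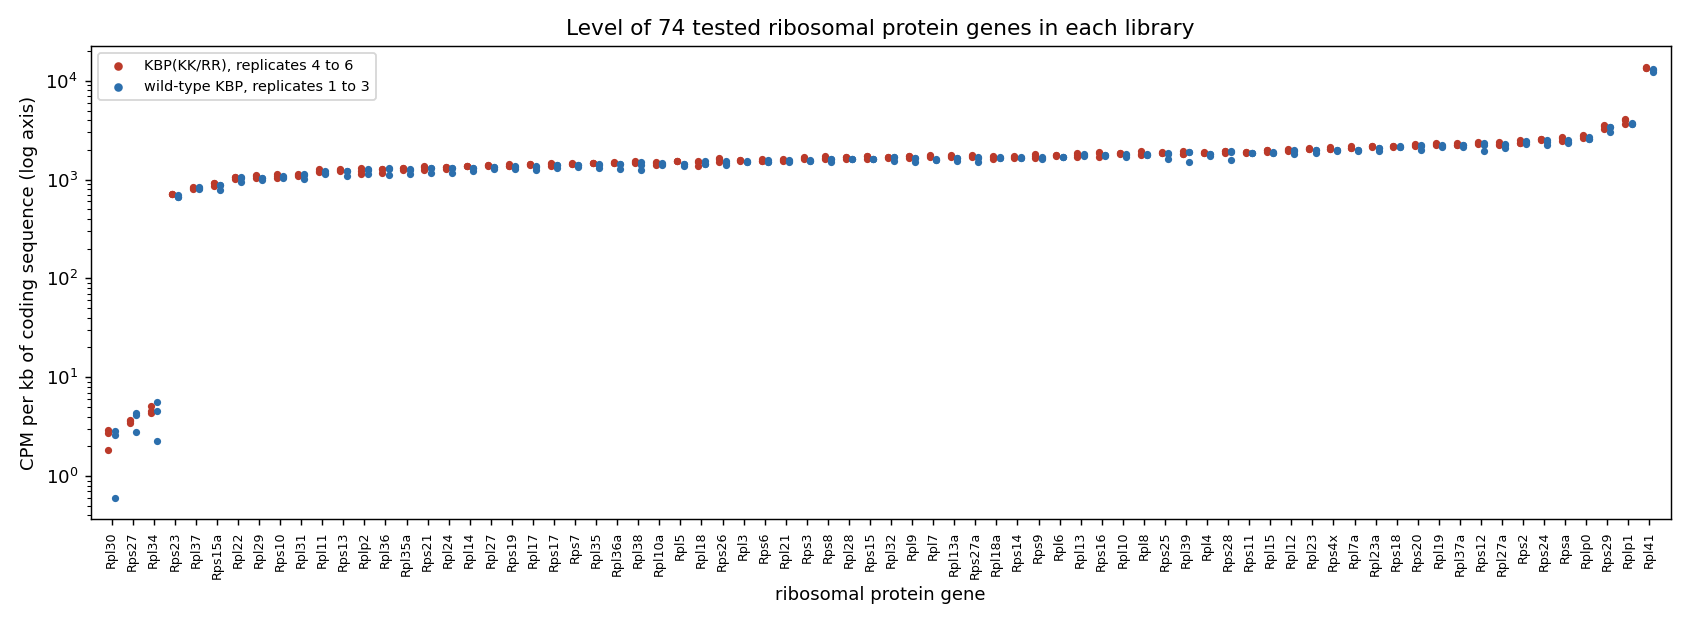
CPM per kb of coding sequence, on a log axis, for 74 tested ribosomal protein genes, with each library as a point (KBP(KK/RR) in red at the left of each pair, wild-type KBP in blue). Rpl30, Rps27 and Rpl34 lie far below the rest, Rpl41 lies above it, and 64 genes lie between 1000 and 2600 CPM per kb.

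The other 4 genes were almost uncounted in all 6 libraries. Rpl26 had 0, 0 and 1 reads in KBP(KK/RR) replicates 4, 5 and 6, and 0, 0 and 0 in wild-type KBP replicates 1, 2 and 3. Rpl30 had 30, 23 and 19 reads in KBP(KK/RR) and 26, 29 and 5 in wild-type KBP. Rpl34 had 53, 39 and 45 reads in KBP(KK/RR) and 42, 63 and 19 in wild-type KBP. Rps27, a zinc-finger protein of the small subunit, had 26, 23 and 27 reads in KBP(KK/RR) and 27, 35 and 17 in wild-type KBP. These counts are far below those of their partners in the same particle, and wild-type KBP replicate 3 was lowest for Rpl30, Rpl34 and Rps27. Of the 50-base windows in their coding sequences, 87.3% for Rpl26, 83.1% for Rpl30, 72.2% for Rpl34 and 100% for Rps27 occur without mismatch in transcripts of another GENCODE gene. The same was true of every window in 28 genes that were well counted, and how reads with several matching places were treated was not stated. The 4 genes were near-absent in both groups and carry no usable comparison. The log2 fold changes of Rpl30, Rpl34 and Rps27 were 0.24, 0.12 and -0.083 with SEs of 0.38, 0.23 and 0.24.

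As a family, ribosomal protein transcripts were slightly higher in KBP(KK/RR) cells, and no single gene of it was called. They took 6.50%, 6.72% and 6.79% of the counts in KBP(KK/RR) replicates 4, 5 and 6, and 6.47%, 6.39% and 6.20% in wild-type KBP replicates 1, 2 and 3. The groups did not overlap, although KBP(KK/RR) replicate 4 and wild-type KBP replicate 1 were nearly level. The means were 6.67 ± 0.155% and 6.36 ± 0.140% (SD, n = 3 each). The difference was carried by both subunits: the large subunit's genes took 4.09 ± 0.0908% in KBP(KK/RR) and 3.90 ± 0.0813% in wild-type KBP, and the small subunit's 2.58 ± 0.0645% in KBP(KK/RR) and 2.46 ± 0.0594% in wild-type KBP. Large subunit shares did not overlap between the groups, and small subunit shares overlapped at KBP(KK/RR) replicate 4 and wild-type KBP replicate 1. Counts of the small subunit over those of the large one were 0.631 ± 0.00233 in KBP(KK/RR) and 0.632 ± 0.00273 in wild-type KBP, a difference within the spread between replicates. In bulk RNA, a change in the share of cells of some type and a change in the RNA of each cell cannot be told apart.

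**Figure D2:**
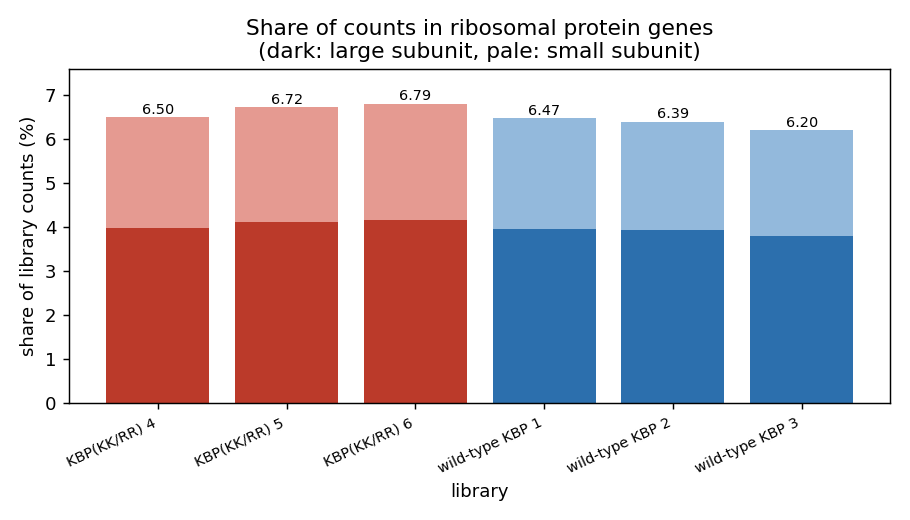
Share of each library's counts, in percent, that fell in the 76 ribosomal protein genes, with the large subunit in dark and the small subunit in pale colour (KBP(KK/RR) in red, wild-type KBP in blue). The 3 KBP(KK/RR) libraries lie at 6.50 to 6.79% and the 3 wild-type KBP libraries at 6.20 to 6.47%.

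Gene by gene, 75 of the 76 passed the filter on low counts. Of these, edgeR called 0 higher (1.05% of all tested genes were) and 0 lower (2.07% of all). At an unadjusted p under 0.05, 23 were higher, where 8.32% of all tested genes were, and 0 were lower, where 10.3% were. The 3 KBP(KK/RR) libraries all exceeded the 3 wild-type KBP libraries for 27 of the 75 (11.8% of all tested genes), and all lay below them for 0 (10.5% of all). The log2 fold change was above 0 for 72 of the 75, where 49.2% of all tested genes were. The genes share their libraries and moved together, so these counts do not stand for independent observations. DESeq2 also called 0 in either direction, with 3 of the 75 left without an adjusted p by its own filter, and limma-voom called 0.

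The size of the difference was about 5%. The median log2 fold change of the 75 genes was 0.066, a fold of 1.05, against -0.0022 over all tested genes. Among the 72 well-counted genes it ran from -0.0042 to 0.12, folds of 0.997 to 1.08, and 70 of the 72 were above 0. Their 95% intervals ran at the widest from -0.17 to 0.30, both bounds belonging to Rpl39, so changes larger than 1.23-fold up or below 0.890-fold lay outside every interval. The interval lay wholly above 0 for 23 genes, held 0 for 49 and lay wholly below 0 for 0. The replicate coefficient of variation had a median of 2.76% over these genes, against 2.98% over the 1009 other genes with at least 200 CPM, whose median log2 fold change was 0.012.

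**Figure D3:**
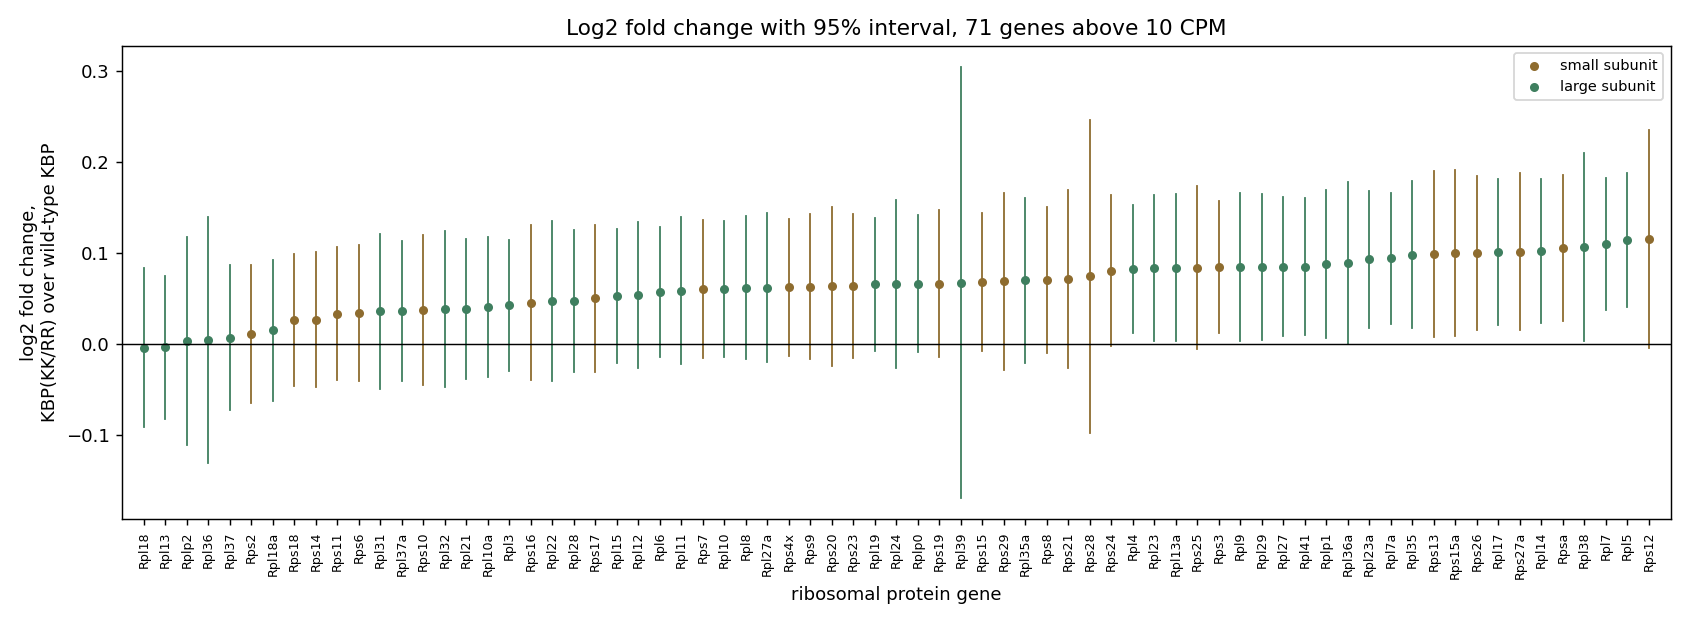
Log2 fold change of KBP(KK/RR) over wild-type KBP, with its 95% interval from edgeR as a line, for 71 ribosomal protein genes above 10 CPM, in rising order and coloured by subunit. The points lie between -0.0042 and 0.12, genes of both subunits are mixed along the order, and 48 of the 71 intervals hold 0.

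The difference was spread unevenly over the libraries. Relative to each gene's mean over the 6 libraries, the median log2 deviation of the 72 genes was 0.0021, 0.032 and 0.061 in KBP(KK/RR) replicates 4, 5 and 6, and -0.0049, -0.017 and -0.087 in wild-type KBP replicates 1, 2 and 3. KBP(KK/RR) replicate 6 was the highest library for 47 of the 72 genes and wild-type KBP replicate 3 the lowest for 48. Without wild-type KBP replicate 3 the median log2 fold change was 0.038, 64 of 75 genes were above 0 and 8 had an unadjusted p under 0.05. Without KBP(KK/RR) replicate 6 these values were 0.050, 67 and 4. The 2630 other genes above 10 CPM with under 1000 coding bases deviated in the same order of libraries but less at the extremes. Their medians were 0.0018, 0.010 and 0.044 in KBP(KK/RR) and -0.0056, -0.024 and -0.028 in wild-type KBP.

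Within the family, the low values of wild-type KBP replicate 3 followed coding length. The median deviation there was -0.14 for the 22 genes with under 400 coding bases, -0.078 for the 29 with 400 to under 600 and -0.031 for the 21 with 600 or more. It was the lowest library for 20 of the 22 shortest genes, 21 of the 29 and 7 of the 21 longest. In KBP(KK/RR) replicate 6 the same 3 classes deviated alike, by 0.061, 0.057 and 0.064. The order was the opposite in wild-type KBP replicate 1 (0.016, -0.0063 and -0.026, from the shortest genes to the longest) and replicate 2 (0.0099, -0.017 and -0.041). The lowest genes in wild-type KBP replicate 3 were Rpl39 (-0.26), Rps28 (-0.23), Rps12 (-0.21) and Rpl38 (-0.19), while Rpl18 (0.067) and Rps2 (0.035) were above their means there. Without that library the log2 fold changes of Rpl39 and Rps28 were -0.033 and -0.013, against 0.068 and 0.075 with it. These 6 genes were picked from their values.

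**Figure D4:**
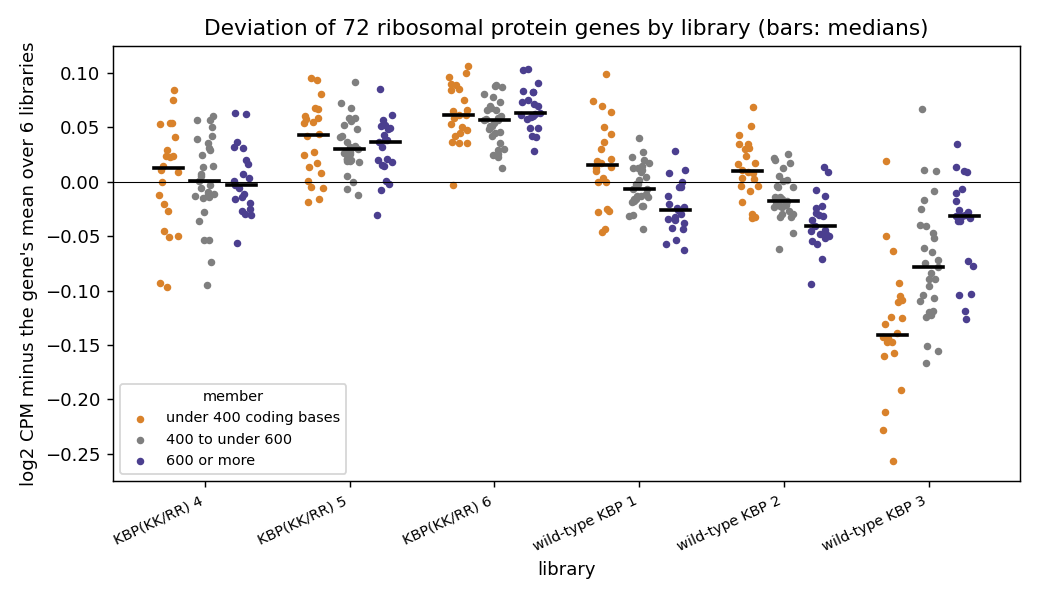
Log2 CPM of each of 72 ribosomal protein genes minus its mean over the 6 libraries, by library (3 KBP(KK/RR), then 3 wild-type KBP) and by coding length, with black bars at the class medians. Genes with under 400 coding bases have a median of -0.14 in wild-type KBP replicate 3, against -0.031 for genes with 600 or more.

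Smoothing out length and GC content within each library lowered the family's median log2 fold change, which was 0.066 without it. With transcript length the median log2 fold change was 0.030, 58 of 75 genes were above 0 and 11 had an unadjusted p under 0.05. With coding length in its place it was 0.026, 57 and 9. Ribosomal protein genes are short, with a median of 456 coding bases against 1401 over all tested genes, so this correction cannot separate a difference in the family from one that follows length. The classes of the family by coding length had median log2 fold changes of 0.073, 0.062 and 0.063 without it, from the shortest genes to the longest. The share of structural RNA (ribosomal, small nuclear, small nucleolar, 7SK and 7SL RNA) also differed, at 0.174 ± 0.0110% in KBP(KK/RR) and 0.232 ± 0.0230% in wild-type KBP libraries. With those rows left out, the family's median was 0.066 and 0 genes were called.

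**Figure D5:**
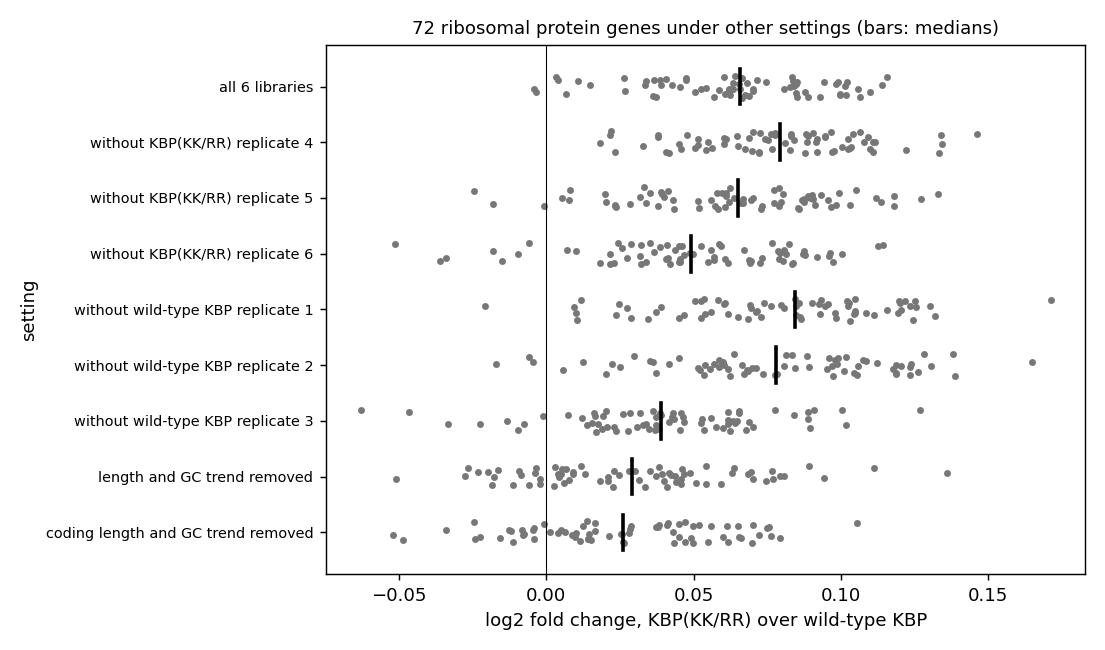
Log2 fold changes of 72 ribosomal protein genes (grey points, KBP(KK/RR) over wild-type KBP) with all 6 libraries, with each library left out in turn and after a length and GC trend was removed, with black bars at the medians. The points lie mostly above 0 in every row, and lie nearest to 0 without wild-type KBP replicate 3 and with either trend removed.

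Among proteins of the large subunit, Rpl5 had the smallest p of the family. Rpl5 (ENSMUSG00000058558, whose start is printed above) joins Rpl11 and 5S ribosomal RNA in a particle that can bind the p53 regulator Mdm2. It measured 1372, 1358 and 1369 CPM in KBP(KK/RR) and 1292, 1274 and 1223 CPM in wild-type KBP, and the groups did not overlap. Its log2 fold change was 0.11 (SE 0.036, 95% interval 0.040 to 0.19, edgeR adjusted p = 0.0803), which did not pass the threshold. Rpl7, an RNA-binding protein on the outside of the large subunit, had 1404, 1364 and 1424 CPM in KBP(KK/RR) and 1313, 1293 and 1278 CPM in wild-type KBP. Here too the groups were apart, with a log2 fold change of 0.11 (SE 0.035, adjusted p = 0.0899). With upper-quartile scaling Rpl5 and Rpl7 passed (adjusted p 0.0465 and 0.0493), and the median over all tested genes moved to 0.016. Rpl11, the partner of Rpl5, measured 647, 644 and 681 CPM in KBP(KK/RR) and 654, 629 and 610 CPM in wild-type KBP. Its groups overlapped, with a log2 fold change of 0.059 (SE 0.039, adjusted p = 0.442).

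Other large subunit proteins differed by similar or smaller amounts. Rpl7a had 1659, 1681 and 1732 CPM in KBP(KK/RR) and 1567, 1583 and 1601 CPM in wild-type KBP (log2 fold change 0.094, adjusted p = 0.144), and Rpl14 had 884, 896 and 899 against 859, 847 and 790 CPM (0.10, adjusted p = 0.152). In both of these genes the groups did not overlap. Both have a pyrimidine run across the annotated start, but whether such a run goes with the difference was not tested. Rpl10, which is loaded last and shapes the peptidyl site, is X-linked and had 1185, 1174 and 1193 CPM in KBP(KK/RR) and 1166, 1142 and 1099 CPM in wild-type KBP (log2 fold change 0.061, adjusted p = 0.382). All 3 KBP(KK/RR) values were above all wild-type KBP values. Rpl38, which in mouse is needed for translation of a subset of Hox messages, had 308, 315 and 321 CPM in KBP(KK/RR) and 298, 314 and 265 CPM in wild-type KBP. Its groups overlapped, and its log2 fold change was 0.11 (SE 0.049, adjusted p = 0.252). With the trend on transcript length and GC content removed it was the 1 gene of the family that passed (0.14, adjusted p = 0.0458). Its log2 fold change was 0.11 (adjusted p = 0.412) with the coding-length trend removed, and 0.042 (adjusted p = 0.673) without wild-type KBP replicate 3. Rpl41 had 1001, 1023 and 1019 CPM in KBP(KK/RR) and 967, 979 and 923 CPM in wild-type KBP, apart in every library (log2 fold change 0.085, adjusted p = 0.210). Rpl22, which most mouse tissues can do without and which has the paralogue Rpl22l1, had a log2 fold change of 0.047 (adjusted p = 0.585), and Rpl22l1 one of 0.074 (adjusted p = 0.532).

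The lowest fold changes of the well-counted genes were also in the large subunit. Rpl18 had 780, 848 and 869 CPM in KBP(KK/RR) and 816, 816 and 873 CPM in wild-type KBP, with a log2 fold change of -0.0042. Rpl13 had 1079, 1117 and 1168 CPM in KBP(KK/RR) and 1145, 1133 and 1095 CPM in wild-type KBP, with one of -0.0035. The groups overlapped in both genes, and both signs turned positive with upper-quartile scaling or library totals. Rpl36 (0.0041) and Rpl37 (0.0069) were also close to 0.

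Of the stalk proteins, which draw elongation factors to the ribosome, Rplp1 had 1253, 1373 and 1391 CPM in KBP(KK/RR) and 1257, 1269 and 1254 CPM in wild-type KBP. KBP(KK/RR) replicate 4 lay with the wild-type KBP libraries and the other two lay above them (log2 fold change 0.088, SE 0.039, adjusted p = 0.232). Rplp0 had 2517, 2650 and 2697 CPM in KBP(KK/RR) and 2461, 2466 and 2585 CPM in wild-type KBP, with overlapping groups (0.066, adjusted p = 0.341). Rplp2, the partner of Rplp1 in the stalk, had 392, 418 and 452 CPM in KBP(KK/RR) and 440, 429 and 390 CPM in wild-type KBP (0.0034, adjusted p = 0.981). Without KBP(KK/RR) replicate 4, Rplp1 passed the threshold (adjusted p = 0.0439), as did Rpsa (0.0316).

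In the small subunit, Rps12 had the largest fold change among well-counted genes of the family. Its values were 904, 933 and 948 CPM in KBP(KK/RR) and 922, 879 and 769 CPM in wild-type KBP. The groups overlapped, with a log2 fold change of 0.12 (SE 0.055, edgeR adjusted p = 0.286), and of 0.044 without wild-type KBP replicate 3. Rpsa had 2170, 2353 and 2380 CPM in KBP(KK/RR) and 2136, 2077 and 2201 CPM in wild-type KBP. KBP(KK/RR) replicate 4 lay within the wild-type KBP range (log2 fold change 0.11, SE 0.039, adjusted p = 0.141). Rps27a, made as a fusion with ubiquitin, had 808, 791 and 829 CPM in KBP(KK/RR) and 786, 774 and 704 CPM in wild-type KBP. Its groups did not overlap (log2 fold change 0.10, SE 0.042, adjusted p = 0.188), and the log2 fold change was 0.054 without wild-type KBP replicate 3.

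Rps19, whose gene is often mutated in human Diamond-Blackfan anaemia, had 598, 601 and 620 CPM in KBP(KK/RR) and 585, 601 and 551 CPM in wild-type KBP (log2 fold change 0.067, adjusted p = 0.379). Rps6, a substrate of the S6 kinases downstream of mTOR, had 1149, 1156 and 1210 CPM in KBP(KK/RR) and 1134, 1133 and 1165 CPM in wild-type KBP (0.034, adjusted p = 0.657). Groups overlapped for both genes. Rps23 had 307, 305 and 304 CPM in KBP(KK/RR) and 301, 286 and 289 CPM in wild-type KBP. It was low in level but its groups were apart (0.064, adjusted p = 0.384). Of the small subunit's 30 tested genes, 29 had a log2 fold change above 0, with a median of 0.065. Of the large subunit's 45, 43 did, with a median of 0.066.

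Reads from close copies could move counts between a ribosomal protein gene and its pseudogenes. In 66 of the 76 genes at least 50% of the coding windows of 50 bases occur in a transcript of another GENCODE gene, and in 29 all of them do, so the counts of those genes are uncertain. The other 10 genes, all well counted, had log2 fold changes of 0.033 to 0.085 with a median of 0.063, and all 10 were above 0. The KBP(KK/RR) libraries all exceeded the wild-type KBP libraries for 5 of them, a rule that 11.8% of all tested genes met. The 62 well-counted genes with more shared sequence had a median of 0.066. Rps3, at 8.09% shared, had 1178, 1195 and 1226 CPM in KBP(KK/RR) and 1131, 1124 and 1138 CPM in wild-type KBP (0.085, adjusted p = 0.194). Rpl4, at 20.3%, had 2356, 2357 and 2406 CPM in KBP(KK/RR) and 2266, 2195 and 2262 CPM in wild-type KBP (0.083, adjusted p = 0.191). Rps3 and Rpl4 were named after their values were seen, and in both every KBP(KK/RR) library was above every wild-type KBP library.

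Genes of the same pathway outside the symbol rule had median log2 fold changes of -0.019 to 0.094, list by list. Of 9 tested ribosomal proteins and paralogues whose symbols the rule does not take, 0 were called (1.05% of all tested genes were called higher and 2.07% lower). Of these 9, 8 had a log2 fold change above 0 (49.2% of all tested genes did), with a median of 0.094. Their summed level overlapped between the groups, at 2014 to 2133 CPM in KBP(KK/RR) and 2039 to 2083 CPM in wild-type KBP libraries. Rpl36al, a paralogue of Rpl36a, averaged 207 ± 5.47 CPM in KBP(KK/RR) and 188 ± 10.7 CPM in wild-type KBP (0.14, SE 0.044, edgeR adjusted p = 0.0885). Rpl7l1 (0.096) and Rpl10l (0.15) were not called either. Rps3a1, the mouse gene of a small subunit protein that was left out of that list and was chosen after its value was seen, averaged 1484 ± 33.7 CPM in KBP(KK/RR) and 1366 ± 20.6 CPM in wild-type KBP (0.12, SE 0.035, adjusted p = 0.0639). It passed in limma-voom (adjusted p = 0.0491).

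Of 20 tested TOP messages other than those of ribosomal proteins, most of them for translation factors, 0 were called. Over all tested genes 1.05% were called higher and 2.07% lower. The median log2 fold change of the 20 was 0.084. At an unadjusted edgeR p under 0.05, 11 were higher and 0 lower, where 8.32% and 10.3% of all tested genes were. Eif3f, a subunit of initiation factor eIF3, averaged 253 ± 8.80 CPM in KBP(KK/RR) and 229 ± 7.57 CPM in wild-type KBP (0.14, adjusted p = 0.0611), and passed in several other settings, among them without KBP(KK/RR) replicate 4 (0.0263). Another eIF3 subunit, Eif3e, had a log2 fold change of 0.12 (adjusted p = 0.0925), and the histone chaperone Nap1l1 one of 0.12 (0.0916). The 75 tested mitochondrial ribosomal protein genes, which build a separate ribosome, had a median of 0.057 and 0 calls. Of these 75 genes 64 had a log2 fold change above 0 (49.2% of all tested genes did). The KBP(KK/RR) libraries all exceeded the wild-type KBP libraries for 26 of the 75 (11.8% of all tested genes) and all lay below them for 0 (10.5% of all). At an unadjusted edgeR p under 0.05, 13 of the 75 were higher (8.32% of all tested genes were) and 0 lower (10.3% of all). The lowest p of these mitochondrial genes belonged to Mrpl11 (79.4 ± 2.85 CPM in KBP(KK/RR) and 71.2 ± 1.10 CPM in wild-type KBP, 0.16, adjusted p = 0.0615), which also passed in several other settings, among them without KBP(KK/RR) replicate 4 (0.0261).

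Of the related lists, ribosome assembly and the regulators held called genes. Of 43 tested biogenesis genes 2 were called higher (1.05% of all tested genes were) and 0 lower (2.07% of all), with a median log2 fold change of 0.049. Their log2 fold changes ran from -0.56 to 0.17, so the largest change was a decrease, which was not called. Of the 43, 37 were above 0 and 6 below it (49.2% of all tested genes were above 0). Dcaf13, a factor of early small subunit processing, had 84.4, 82.4 and 87.4 CPM in KBP(KK/RR) and 75.6, 76.3 and 73.6 CPM in wild-type KBP. Nmd3, the adaptor that exports the large subunit from the nucleus, had 157, 152 and 156 CPM in KBP(KK/RR) and 143, 141 and 137 CPM in wild-type KBP. In both genes the groups were well apart, with log2 fold changes of 0.17 (SE 0.045, edgeR adjusted p = 0.0362) and 0.14 (SE 0.040, 0.0474). Dcaf13 was not called when KBP(KK/RR) replicate 5 or 6 or any 1 wild-type KBP library was left out (adjusted p 0.0507 to 0.193), nor with the trend on transcript length and GC content removed (0.0616). The call of Nmd3 was lost with each library left out (0.0580 to 0.181). It was also lost in DESeq2 (0.0555) and in limma on log2 of the normalized signal plus 1 (0.0526).

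Chaperones that escort single ribosomal proteins to the ribosome gave 0 calls among 7 tested, with a median of 0.030 (1.05% of all tested genes were called higher and 2.07% lower). Tsr2, which escorts Rps26, had a log2 fold change of 0.10 (adjusted p = 0.242) and Bccip, whose yeast counterpart escorts Rpl23, one of 0.098 (0.232). Of 17 tested regulators of ribosomal protein genes or of the response to free ribosomal proteins, 1 was called higher (1.05% of all tested genes were) and 0 lower (2.07% of all). Their median was -0.019, with 8 above 0 and 9 below it (49.2% of all tested genes were above 0). At an unadjusted edgeR p under 0.05, 2 of the 17 were higher and 4 lower, where 8.32% and 10.3% of all tested genes were. The called gene was Mycn, the Myc-family transcription factor, with 271, 274 and 295 CPM in KBP(KK/RR) and 254, 242 and 256 CPM in wild-type KBP. Every KBP(KK/RR) library was above every wild-type KBP library (0.16, SE 0.042, adjusted p = 0.0379). It was not called when KBP(KK/RR) replicate 5 or 6 or wild-type KBP replicate 1 or 2 was left out (0.0589 to 0.260). Mdm2, bound by free Rpl5 and Rpl11, averaged 258 ± 5.57 CPM in KBP(KK/RR) and 236 ± 11.2 CPM in wild-type KBP (0.13, adjusted p = 0.0834). The transcription factor Sp1 had a log2 fold change of -0.12 (adjusted p = 0.196). It was called lower without KBP(KK/RR) replicate 4 (-0.18, adjusted p = 0.0145) and with the coding-length trend removed (-0.12, adjusted p = 0.0223), and was at -0.072 without KBP(KK/RR) replicate 6. Larp1, named after its value was seen, had a log2 fold change of -0.084 (adjusted p = 0.231).

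Markers of other cell types moved with the groups in part. Of 8 tested primitive endoderm markers 2 were called lower (2.07% of all tested genes were). The summed level of the endoderm markers was 251 to 299 CPM in KBP(KK/RR) and 320 to 395 CPM in wild-type KBP libraries, most of it Lama1 and Col4a1. The transcription factors Gata6 and Sox17 averaged 1.16 and 0.517 CPM in KBP(KK/RR) and 1.31 and 0.509 CPM in wild-type KBP. Gata4, Sox7 and Pdgfra averaged 4.05, 2.24 and 1.46 CPM in KBP(KK/RR) and 4.62, 3.06 and 2.32 CPM in wild-type KBP. Of the 8 tested markers 7 had a log2 fold change below 0 and 1 above it, with a median of -0.22 (49.2% of all tested genes were above 0). Of 6 tested fibroblast markers 1 was called higher, Tagln (1.05% of all tested genes were called higher). The summed level of the fibroblast markers was 51.2 to 54.6 CPM in KBP(KK/RR) and 45.4 to 51.2 CPM in wild-type KBP. Most of it was Tagln, at means of 33.1 CPM in KBP(KK/RR) and 28.2 CPM in wild-type KBP. Col1a1 was lower in KBP(KK/RR), at 8.22 CPM against 9.34 CPM in wild-type KBP, and Fap was at 0 throughout. Of the 6 tested fibroblast markers 5 had a log2 fold change above 0 and 1 below it. Neural markers (6 tested) and trophectoderm markers (7 tested) gave 0 calls, at 160 to 169 CPM and 54.1 to 62.5 CPM in KBP(KK/RR) and 157 to 162 CPM and 56.0 to 64.7 CPM in wild-type KBP. The part of these markers in the ribosomal protein difference was not tested.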

How the data were processed

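Libraries of 6 ES cell samples were prepared with the ScriptSeq v2 kit from total RNA after RiboZero depletion, per the labels' protocols. The submitters' processing notes name bcl2fastq, TopHat, HTSeq, DESeq2, mm10 and GRCm38, with versions, annotation and strand setting not given in the sources used here. Deposited by the authors were raw read counts per gene symbol, and a normalized signal that equals, by its values, each count over a factor for its library. Undoing that factor made 100% of the signal's values whole reads (tolerance 0.01), 0 differed from the raw counts, and edgeR called 448 genes on them.

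Raw counts were tested with edgeR 4.0.16 in R 4.3.3 (TMM, robust quasi-likelihood fit, glmQLFTest, group as the only term) over 14340 genes that passed filterByExpr, with Benjamini-Hochberg adjusted p under 0.05 called. Totals were 24131743 to 32160411 counts, which limits low genes most. CPM use TMM-scaled totals. Members are printed from the fit on all genes and have no test as a list. The members and lists were chosen with earlier results of these data known. Genes named are those with the 5 largest fold changes in each direction and the 5 highest and 5 lowest levels per kb. A list of proteins with known roles, the KBP gene and 3 per related list by p were also named. Rpl22l1 was under none of these rules and is given as the paralogue of Rpl22, and markers are from their lists. Others are said to be named after their values were seen or picked from their values. Some single genes stay in every test and count but are not reported here or drawn by name. Coding length, transcript length, GC content and shared 50-base windows are from GENCODE M21 on GRCm38. The procedure was tested on simulated data. Alternatives were DESeq2 1.42.0, limma 3.58.1 (voom, and log2 of the signal plus 1), other scalings, filters and thresholds, structural RNA left out, removal of a length and GC trend (splines with 5 degrees of freedom), and each library left out. Both the coding-length trend and the recovered-reads test were added after seeing the data.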

Additional observations from a re-analysis of the deposited data

How the results depend on the processing

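No paired analysis was made, because the groups share no replicate numbers and no pairing of cultures was stated. The number of ribosomal protein genes called higher was 0, and became 2 with upper-quartile scaling, 1 with the trend on length and GC content removed, 2 at an adjusted p under 0.1, and 0 to 2 with single libraries left out; the number called lower was 0 throughout. The median log2 fold change stayed above 0 under all alternatives run, at 0.026 to 0.085, and the difference in share of counts at 0.24 to 0.40 percentage points. Of 967 values of 51 named genes under 19 alternatives, 32 changed sign, in the genes that follow. Rpl18 became 0.014 with upper-quartile scaling and 0.00045 with library totals, and Rpl13 0.015 and 0.00076. With the trend on transcript length and GC content removed, Rplp2 became -0.027, Rps23 -0.0021, Rpl37 -0.051 and Rps6 -0.023. With coding length, Rplp2 became -0.034, Rpl37 -0.052, Rpl22 -0.0076 and Rps6 -0.0044. With single libraries left out, log2 fold changes ran from -0.14 to 0.51 for Rpl30, -0.14 to 0.43 for Rpl34, -0.23 to 0.048 for Rps27, -0.036 to 0.041 for Rpl18, -0.034 to 0.023 for Rpl13, -0.051 to 0.051 for Rplp2, -0.063 to 0.056 for Rpl36, -0.0098 to 0.022 for Rpl37, -0.0013 to 0.078 for Rpl22 and -0.033 to 0.051 for Rps4y2. The cause of these changes was not tested. Counts limit Rpl26, Rpl30, Rpl34 and Rps27, which could not be compared at this depth.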

Other observations

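Other features of the ribosomal protein genes did not set apart subgroups with clearly different medians, and no test was made between them. The 36 well-counted genes with CGGAAG in a start window had a median log2 fold change of 0.067, and the 17 with a window that lacks it 0.066. Those with CTTTCC on the gene's strand (21 genes) had 0.066, and those without (32 genes) 0.068. The 28 that overlap an annotated small nucleolar RNA had 0.063, and the 44 others 0.066. The 4 X-linked genes, Rpl10, Rpl36a, Rpl39 and Rps4x, had 0.065. Rps4y2, now called Rps4l in RefSeq, where it is a transcribed pseudogene, averaged 504 ± 29.9 CPM in KBP(KK/RR) and 502 ± 16.2 CPM in wild-type KBP cells (log2 fold change 0.0046, edgeR adjusted p = 0.969), and was named after its value was seen.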
